A study of Mus musculus with 25 samples.

Results

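The genes Tmem119, Siglech, Fcrls, Adgrg1, Ecscr, Sparc, Olfml3 and Serpine2 encode surface receptors and secreted or matrix proteins of resting microglia, the resident macrophages of the central nervous system. They were chosen by name, and the rows with these symbols were read from the count matrices, so they are 8 of the 22439 gene symbols measured. All 8 were present in the matrices and passed the expression filter in microglia. The comparison asked which of them stayed and which fell in microglia after spinal cord injury, and whether cells that entered the cord from the blood carried them.

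The samples were myeloid cells of the mouse spinal cord, measured by droplet 3′ single-cell RNA-seq with unique molecular identifiers (UMIs), which mark single captured RNA molecules. Control mice had a laminectomy alone (Ctrl, 2 libraries), which removes bone above the cord and spares the tissue. Injured mice were sampled at day 1 (D1, 5 libraries), day 2 (D2, 4), day 3 (D3, 7), day 10 (D10, 5) or day 21 (D21, 2). A library pooled the lesion segments of 1 to 3 mice, and the library is the replicate throughout. The 12 mixed libraries came from Cx3cr1CreERT2 mice, in which the promoter of Cx3cr1, a chemokine receptor of microglia and monocytes, drives an inducible Cre, and held all YFP-positive cells. The 5 resident libraries (RFP+/YFP+) and the 7 infiltrating libraries (RFP-/YFP+) came from Cx3cr1CreERT2:R26tdTomato mice, which add a red reporter that Cre switches on. All groups, controls included, thus carried the Cx3cr1CreERT2 allele, sort and strain were split the same way, and ages are not given in the sources used here. Sex was taken from the labels. Of the controls, the mixed library was female and the resident one male. The mixed libraries of D1, D3 and D10 were male and that of D21 female. For 1 further library of D3 the labels conflict, with infiltrating in the title and RFP+/YFP+ as the sort. It is called D3_conflict 1 and entered no fit except as a named alternative. Its cells are in the pooled levels of clusters and cell types and in other descriptions without a test.

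Microglia in the healthy cord survey the tissue with fine processes, and their resting state depends on TGF-beta signalling through SMAD transcription factors and on the lineage factor PU.1. After injury they turn amoeboid, divide and take up debris, and many transcripts of the resting state drop while those of phagocytosis and inflammation rise. Monocytes enter from the blood in the first days and become macrophages beside them. Tmem119 is a transmembrane protein used to tell microglia from such cells. Siglech is a receptor of the SIGLEC family that signals through the adaptor DAP12, the product of Tyrobp. Fcrls is a secreted or surface-bound scavenger-type protein of the Fc receptor-like family, and Adgrg1 is an adhesion G-protein-coupled receptor. Ecscr is a single-pass surface protein first described in endothelial cells. Sparc is a collagen-binding matricellular protein, Olfml3 is a secreted olfactomedin-domain glycoprotein, and Serpine2 (protease nexin-1) is a secreted inhibitor of thrombin and plasminogen activators.

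On GRCm38, in GENCODE release M21, Tmem119 spans chr5:113793729-113800516 (minus strand), Siglech chr7:55768178-55778925 (plus strand), Fcrls chr3:87250758-87263738 (minus strand) and Adgrg1 chr8:94974751-95014217 (plus strand). Sparc spans chr11:55394500-55423183 (minus strand), Olfml3 chr3:103722222-103738001 (minus strand) and Serpine2 chr1:79794197-79861180 (minus strand). A promoter of RefSeq (GRCm38.p6) was matched for 6 of the 8 genes, Siglech, Fcrls, Adgrg1, Sparc, Olfml3 and Serpine2. The 250 bases before each start were searched on both strands for short core motifs of SMAD (CAGAC), of PU.1 (GAGGAA) and of AP-1 factors (TGANTCA), and for the TATA box (TATAAA). The SMAD motif lay in a promoter of 5 of the 6 genes, all but Olfml3, and in 42.2% of the 32851 mouse promoters of the same length. The PU.1 and TATA motifs were found in Fcrls alone (23.3% and 12.4% of all promoters), and the AP-1 motif in Adgrg1 alone (6.75%). A match describes letters and is not evidence of binding.

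The promoters of Siglech, which fell most at D1, and of Serpine2, which did not pass the test at any time against control, are shown 5′ to 3′ on the gene's strand, so that the 2 kinds of gene can be set side by side. Bases within an exon of the gene are left out, and capitals mark CAGAC or its reverse complement GTCTG.
Siglech, chr7:55767934-55768177, plus strand: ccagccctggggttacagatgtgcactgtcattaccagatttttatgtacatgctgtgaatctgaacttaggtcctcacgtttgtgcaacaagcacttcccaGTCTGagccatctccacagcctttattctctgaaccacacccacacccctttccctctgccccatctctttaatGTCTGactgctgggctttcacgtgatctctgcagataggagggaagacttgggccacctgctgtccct
Serpine2, chr1:79858697-79858915, minus strand: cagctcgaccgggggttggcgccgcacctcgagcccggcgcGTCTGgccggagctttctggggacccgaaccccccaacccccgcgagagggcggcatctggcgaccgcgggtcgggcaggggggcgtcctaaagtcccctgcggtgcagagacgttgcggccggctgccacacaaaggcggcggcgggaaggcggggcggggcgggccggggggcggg
Siglech held 2 such matches and Serpine2 held 1, so the motif was present on both sides of that contrast.

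The 25 libraries held 30958 cells (155 to 3800 each) and 486649 to 33204422 UMIs. The deposited cell type codes carry no names. Code 1 had 9 of 9 microglia markers high (a list without the 8 genes) and is called microglia, code 2 had 8 of 9 macrophage markers and 5 of 8 monocyte markers high (macrophages below), and codes 3 and 4 are called dendritic-like and neutrophil-like cells. The control libraries held microglia alone, and deposited cluster 1 was exactly their 1887 cells. Libraries lay in 7 sequencing pools, and 127 cell barcodes occurred in 2 libraries each (254 cells). Summed over the microglia of a library, the microglia marker list stood at 21244 to 24181 counts per 1000000 UMIs (CPM) in Ctrl, 3428 to 6052 at D1 and 9311 to 10998 at D10, with all 9 markers detected in every library. The macrophage list stood at 508 to 615 CPM in Ctrl and 3125 to 6227 after injury. Lists for endothelial cells (0 to 29.2 CPM) and for pericytes and fibroblasts (0 to 7.40 CPM), other cell types that make Ecscr or Sparc, were low at all times. A list for astrocytes stood at 132 to 156 CPM in Ctrl and 10.9 to 73.5 at D1, and one for border macrophages at 2.68 to 8.09 CPM in Ctrl and 37.4 to 326 after injury. The dendritic cell list stood at 118 to 146 CPM in Ctrl, 202 to 208 at D1 and 29.6 to 57.2 at D2. It was at 64.2 to 107 CPM at D3, 193 to 337 at D10 and 564 at D21. In Ctrl the neutrophil list was at 203 to 223 CPM, the B cell list at 45.9 to 58.4 and the oligodendrocyte precursor list at 0.539 to 6.25. After injury they were at 28.1 to 160, 6.53 to 30.7 and 10.1 to 93.3 CPM. The median percent of mitochondrial UMIs per microglial cell was 0.572 to 0.664 in Ctrl, 0.530 to 1.33 at D1, where D1_mixed 3 had the highest value, and 0.475 to 1.95 at D3. Median UMIs per microglial cell were 3760 to 3810 in Ctrl, 2652 to 3680 at D1, 1577 to 3421 at D3 and 2606 to 3050 at D10. The part of these shifts in the results below was not tested.

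In microglia, Tmem119, Siglech and Adgrg1 fell against control and were still lower at D10, Sparc and Olfml3 fell at D1 and were higher at D3 than at D1, and Fcrls and Serpine2 did not pass the test against control at any time. Ecscr passed it against control only in the 1 library of D21, and its answer depends on the scaling. The test summed the raw counts of the microglia of each mixed or resident library with at least 20 such cells (17 sums of 23 to 1500 cells) and compared time points with edgeR's quasi-likelihood test over 10801 genes. A gene was called at a Benjamini-Hochberg adjusted p under 0.05. At D21 the lone library is assumed to vary like those of the other times, so its tests carry no replicate spread of their own. At D1, 5 of the 8 genes were lower and none higher, where 22.7% of all genes tested were lower. At D2 it was 4 (12.2% of all genes lower), at D3 3 (17.6%), at D10 3 (2.22%) and at D21, with 1 library, 3 (0.861%). Leaving out 1 library gave 1 to 3 of the 8 at D10 (24 to 337 genes lower in all) and 0 to 4 at D21 (2 to 137), with the lowest counts of both without Ctrl_mixed 1. In time order, the median log2 change of the 8 genes was -1.85, -1.25, -0.68, -0.64 and -1.18, where that of all genes lay between -0.08 and -0.01. Between injured time points, 4 of the 8 were higher at D3 than at D1 (8.62% of all genes higher) and 1 was higher at D10 than at D3 (2.96%). DESeq2 called 5, 4, 4, 3 and 4 of the 8 lower from D1 to D21, among 2975, 1837, 2309, 489 and 293 genes in all. All comparisons with control share the same 2 control libraries. In such sums, fewer cells of a kind and less RNA per cell cannot be told apart.

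Whether a gene near 0 counts as lower depends on the scaling. The edgeR scaling factors (TMM, which sets the bulk of genes equal) were 1.38 and 1.46 for the control sums and 0.77 to 1.28 for the others. With libraries scaled by their total UMIs alone, the median of all genes against control moved to log2 values of -0.73, -0.40, -0.62, -0.60 and -0.94 from D1 to D21. The share of higher genes among all called ones was 51.2%, 59.1%, 53.3%, 78.4% and 87.7% in time order with TMM, and 22.6%, 32.6%, 22.9%, 18.6% and 14.7% with total UMIs. With total UMIs 7, 5, 5, 4 and 4 of the 8 were lower from D1 to D21, among 4383, 2617, 3956, 2161 and 1845 genes in all. CPM values below are on the total-UMI scale, and log2 changes are from the TMM fit unless named otherwise, so they can differ in size and, near 0, in sign. In the mixed libraries alone, with 1 control library, 3, 4, 0, 0 and 0 of the 8 genes were lower in time order, among 212, 746, 46, 1 and 58 in all. With sequencing pool as a term 3 of the 8 were lower at D2 (404 genes in all), 0 at D3 (1) and 4 at D10 (790).

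**Figure D1:**
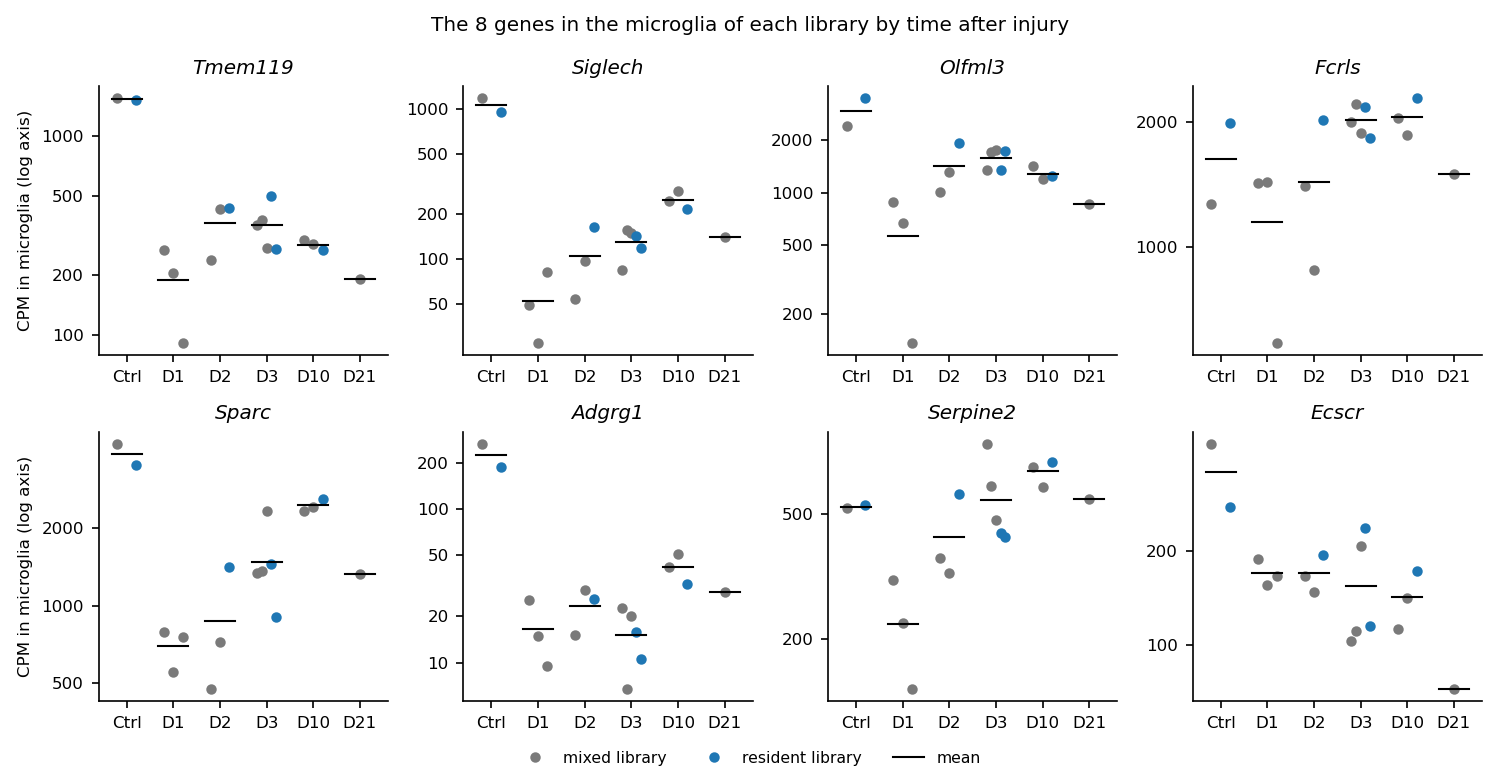
CPM of each gene over the microglia of each library (log axis) by time point, with a point per library, coloured by sort, and a bar at the mean. For Tmem119, Siglech and Adgrg1 every injured library lies below both controls, while for Fcrls and Serpine2 injured and control libraries overlap.

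**Figure D2:**
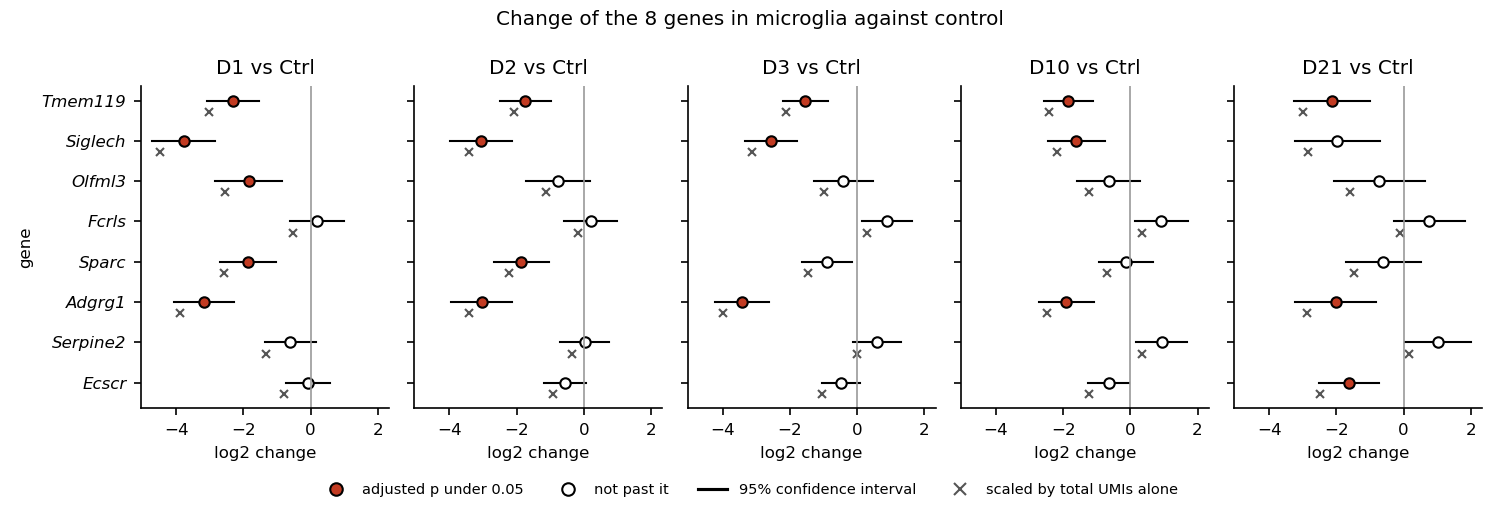
Log2 change of each gene against control at each time point, with its 95% confidence interval from edgeR. Filled points passed an adjusted p under 0.05, and crosses give the value with total-UMI scaling, which is lower for every gene at every time.

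Tmem119, the surface marker, was at 1544 and 1519 CPM in the 2 control libraries. It was at 269, 206 and 91.4 CPM at D1, 239, 429 and 434 at D2 and 357, 378, 274, 500.3 and 269.6 at D3. At D10 it was at 301, 287 and 267 CPM and at D21 at 191. Every injured library lay below both controls, with a highest value of 500.3 CPM, and the D1 library with the lowest value was D1_mixed 3. The mean went from 1531 ± 17.3 CPM (SD, n = 2) to 189 ± 90.1 CPM (SD, n = 3) at D1, 356 ± 94.2 CPM (SD, n = 5) at D3 and 285 ± 17.2 CPM (SD, n = 3) at D10. Against control the log2 change was -2.31 at D1 (SE 0.37, adjusted p = 0.000121 by edgeR) and -1.74 at D2 (0.00208). At the later times it was -1.54 (D3, 0.00130), -1.84 (D10, 0.00229) and -2.14 (D21, 0.0188). Tmem119 was thus lower at D1, D2, D3 and D10, and in the 1 library of D21. From D1 to D3 the log2 change was 0.77 (95% confidence interval 0.15 to 1.40, adjusted p = 0.0784), which missed the threshold. With sequencing pool as a term the changes at D2 (-1.46) and D3 (-1.51) were no longer called, and without Ctrl_mixed 1 that at D21 was not called either.

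Siglech, the SIGLEC-family receptor, was the gene of the 8 with the most negative log2 change at D1, while at D2 it and Adgrg1 were alike. It was at 1183 and 956 CPM in the controls and at 49.2, 27.4 and 81.2 CPM at D1. It was at 54.1, 96.2 and 163 CPM at D2 and at 84.5, 157, 149.6, 143 and 118 CPM at D3. At D10 its values were 244, 283 and 214 CPM, above all earlier injured libraries and below both controls, and D21 was at 139 CPM. The mean went from 1069.7 ± 160.2 CPM (SD, n = 2) to 52.6 ± 27.1 CPM (SD, n = 3) at D1 and 247 ± 34.6 CPM (SD, n = 3) at D10. The log2 change against control was -3.77 at D1 (SE 0.45, adjusted p = 1.21e-05), -3.05 at D2 (0.000129), -2.55 at D3 (8.88e-05) and -1.60 at D10 (0.0158). At D21 it was -1.97 (adjusted p = 0.0593), past the threshold with total-UMI scaling (-2.83) and with DESeq2. Siglech was higher at D3 than at D1 (log2 change 1.22, adjusted p = 0.0245), a call lost without D1_mixed 1 or D1_mixed 2 and in the mixed libraries alone (1.14, adjusted p = 0.0765). The D10 call was lost without Ctrl_mixed 1, D10_mixed 1 or D10_resident 1 (adjusted p up to 0.262), and that at D3 with pool as a term (log2 change -0.82).

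Adgrg1, the adhesion receptor, was at 263 and 186 CPM in the controls and had values of 25.6, 14.8 and 9.52 CPM at D1. Its values were 15.04, 29.6 and 25.8 CPM at D2 and 22.7, 6.75, 20.1, 15.9 and 10.6 CPM at D3. At D10 they were 42.1, 51.1 and 32.4 CPM and at D21 29.0 CPM. The highest injured library, D10_mixed 2, was still far under the lower control, and the 3 D10 libraries lay above every earlier injured library. The log2 change was -3.17 at D1 (SE 0.42, adjusted p = 2.81e-05), -3.04 at D2 (0.000118) and -3.42 at D3 (1.22e-05). It was -1.91 at D10 (0.00367) and -2.02 at D21 (0.0386), so Adgrg1 was lower at D1, D2, D3 and D10, and in the 1 library of D21. From D3 to D10 it rose by 1.52 on the log2 scale (adjusted p = 0.0192), the only one of the 8 to pass there. That call was lost without D10_mixed 1, D10_mixed 2 or D3_resident 2, with pool as a term (log2 change 0.17), in the mixed libraries alone (1.46) and without clusters 6, 7 and 10 (1.27, adjusted p = 0.0979). The D10 call against control was lost without Ctrl_mixed 1, and that at D21 without any 1 of 5 libraries (Ctrl_mixed 1, D1_mixed 2, D10_mixed 1, D10_mixed 2 and D3_resident 1). The D21 call was also lost without cluster 2 (adjusted p = 0.0514), without clusters 6, 7 and 10 (0.0700), with the replicate block (0.0528) and in the mixed libraries alone (0.0705).

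Fcrls, of the Fc receptor-like family, was at 1274 and 1994 CPM in the controls. It was at 1426, 1439 and 589 CPM at D1, 1407, 881 and 2022 at D2 and 2001, 2208, 1878, 2172 and 1832 at D3. At D10 it was at 2044, 1857 and 2281 CPM and at D21 at 1501. Injured libraries lay on both sides of the controls, with D1_mixed 3 and D2_mixed 2 (23 cells) below both of them. The log2 change was 0.20 at D1 (95% confidence interval -0.60 to 1.01, adjusted p = 0.693), 0.20 at D2 (0.709), then 0.89 (D3, 0.0589), 0.92 (D10, 0.141) and 0.77 (D21, 0.395). Fcrls was not called at any time in this fit, which does not show that it did not change: the interval at D3 was 0.14 to 1.63 and at D10 0.13 to 1.72. With total-UMI scaling the sign at D1 was negative (-0.52) and at D10 positive (0.33), both uncalled. The D3 change lay near the threshold: it was called higher with the replicate block (1.00, adjusted p = 0.0368), in 5 further settings (log2 changes of 0.82 to 0.95, adjusted p of 0.0257 to 0.0452) and without D1_mixed 3, D2_mixed 2 or D2_resident 1. With pool as a term the D10 change was 1.02 (adjusted p = 0.0495) and was called higher.

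Ecscr, the surface protein shared with endothelium, was at 436 and 276 CPM in the controls. Its values were 189, 155 and 166 CPM at D1, 166, 148 and 194 at D2 and 103, 111, 207, 236 and 116 at D3. They were 113, 141 and 173 CPM at D10 and 72.7 CPM at D21. All 15 injured libraries lay below both controls on this scale, and D21 was the lowest of all. The TMM fit gave a log2 change of -0.07 at D1 (adjusted p = 0.866), -0.57 at D2 (0.152), then -0.48 (D3, 0.170), -0.64 (D10, 0.1805) and -1.63 (D21, 0.0236), with the last of them called lower. With total-UMI scaling Ecscr was called lower at all 5 times, with log2 changes of -0.80, -0.93, -1.05, -1.23 and -2.50, of which the D1 value is close to the shift of all genes. Without Ctrl_mixed 1 the D21 call was lost, and with pool as a term Ecscr was called lower at D10 (-0.65, adjusted p = 0.0135).

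Among the secreted and matrix genes, Sparc was at 4250.1 and 3527 CPM in the controls. It was at 789, 552 and 759 CPM at D1, 475, 725 and 1411 at D2 and 1346, 1364, 2342, 1457 and 905 at D3. At D10 it was at 2339.9, 2421 and 2608 CPM and at D21 at 1334. Every injured library lay below both controls, those of D1 were all below those of D10, and the D10 libraries were close together. Its log2 change was -1.86 at D1 (SE 0.40, adjusted p = 0.00128) and -1.87 at D2 (0.00223), and Sparc fell at both. At D3 it was -0.89 (0.0533), at D10 -0.12 (95% confidence interval -0.92 to 0.68, adjusted p = 0.878) and at D21 -0.60 (0.540), none past the threshold. Sparc was higher at D3 than at D1 by 0.97 (adjusted p = 0.0413), but leaving out any 1 of 7 of the 17 libraries ended that call (D1_mixed 1, 2 and 3, D3_mixed 3, D3_resident 1, D10_mixed 1 and 2), as did sort as a term (0.93, adjusted p = 0.0669). The D3 change against control was called lower with total-UMI scaling (-1.46) and with DESeq2, and with pool as a term it was positive (1.29) and uncalled.

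Olfml3, the olfactomedin-domain protein, was at 2432 and 3492 CPM in the controls and at 887, 673 and 137 CPM at D1. It was at 1013, 1318 and 1919.6 CPM at D2 and at 1352, 1705, 1765, 1354 and 1742 CPM at D3. At D10 the values were 1418, 1203 and 1247 CPM and at D21 857 CPM. All injured libraries lay below both controls, and D1_mixed 3 lay far below the other D1 libraries. The log2 change was -1.84 at D1 (SE 0.47, adjusted p = 0.00425), where Olfml3 fell. Later it was -0.77 (D2, 0.205), -0.41 (D3, 0.459), -0.65 at D10 (0.410) and -0.72 at D21 (0.546). From D1 to D3 Olfml3 rose by 1.43 (adjusted p = 0.0174), a call that held under each of the 17 left-out libraries and was lost in the mixed libraries alone (1.34, adjusted p = 0.110). The D1 call against control was lost without Ctrl_resident 1 (adjusted p = 0.0621), the library that the mixed fit also leaves out (-1.50, adjusted p = 0.430).

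Serpine2, the protease inhibitor, was at 522 and 536 CPM in the controls. Its values were 309.5, 225 and 139 CPM at D1, 362, 326 and 578 at D2 and 835, 613, 479, 435 and 422 at D3. At D10 they were 706, 611 and 735 CPM, all above both controls, and D21 was at 559.6 CPM. The 3 D1 libraries lay below both controls and the later ones on both sides. The log2 change was -0.61 at D1 (95% confidence interval -1.37 to 0.15, adjusted p = 0.178), 0.03 at D2 (0.961), then 0.59 (D3, 0.173), 0.93 (D10, 0.113) and 1.03 (D21, 0.208), none past the threshold. Serpine2 rose by 1.20 from D1 to D3 (adjusted p = 0.00897), a call lost without D1_mixed 3 (adjusted p = 0.0515). With total-UMI scaling it was called lower at D1 (log2 change -1.33), and with pool as a term it was called higher at D10 (0.99).

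Pool and time could be separated in part. Ctrl_mixed 1 shared a pool with D10_mixed 1 and D10_mixed 2, and Ctrl_resident 1 with D10_resident 1 and D2_resident 1, so these pairs compare CPM within a pool and a sort. The sex of the mice differed in 3 of the 4 pairs, all but that of D2_resident 1. For Tmem119 the log2 ratio was -2.36, -2.43 and -2.51 at D10 and -1.81 at D2. For Siglech it was -2.27, -2.06 and -2.16 at D10 and -2.55 at D2. For Adgrg1 it was -2.65, -2.36, -2.52 and -2.85. These 3 genes were thus lower in each of the 4 within-pool pairs, and so were Sparc, Olfml3 and Ecscr. Sparc was at -0.86, -0.81 and -0.44 at D10 and at -1.32 at D2, and Olfml3 was at -0.78, -1.02, -1.49 and -0.86. Ecscr was at -1.95, -1.63, -0.68 and -0.51. Fcrls (0.68, 0.54, 0.19 and 0.02) and Serpine2 (0.44, 0.23, 0.46 and 0.11) were at or above control in each pair. These ratios are on the total-UMI scale and carry no test. For D1 against control, D21 against control and D3 against D1, pool and time cannot be told apart.

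The share of microglia that showed a gene was also measured. Each cell was thinned to 1000 UMIs so that depth did not differ, and 0 to 11 shallower cells per library were left out. The share of microglia with a Siglech UMI was 63.1% ± 2.79 (SD, n = 2) in Ctrl, 5.09% ± 1.97 at D1 (n = 3), 10.9% ± 5.02 at D3 (n = 5), 17.2% ± 2.55 at D10 (n = 3) and 11.5% at D21 (1 library). For Tmem119 it was 73.8% ± 0.323 in Ctrl, 15.5% ± 6.51 at D1, 28.6% ± 7.83 at D3 and 19.7% ± 0.732 at D10, and for Adgrg1 21.1% ± 3.65, 1.28% ± 0.470, 2.16% ± 0.856 and 4.11% ± 1.25. At this depth the highest share of the 3 genes in an injured library was 41.1% (Tmem119 in D3_resident 1), and control and injured libraries did not overlap. The level of a share depends on depth: the highest injured share of Tmem119 was 53.3% when cells were thinned to 2000 UMIs and 64.8% without thinning, still under the 90.7% and 96.3% of the lower control. Sparc was seen in 95.1% ± 1.70 of control microglia, 40.7% ± 5.06 at D1 and 73.5% ± 3.27 at D10, and Olfml3 in 89.9% ± 6.83, 32.0% ± 19.9 and 57.1% ± 2.85. Fcrls was seen in 72.5% ± 11.1 in Ctrl, 56.8% ± 17.9 at D1, 76.1% ± 4.63 at D3 and 75.1% ± 0.722 at D10. Serpine2 was seen in 39.8% ± 0.965 in Ctrl, 18.6% ± 6.45 at D1 and 41.0% ± 1.84 at D10, and Ecscr in 27.2% ± 8.58, 15.2% ± 1.65 and 12.2% ± 2.11. Injured and control libraries overlapped for Fcrls, Serpine2 and Ecscr, and did not for Sparc and Olfml3. In neutrophil-like cells, which should lack the genes, the same share was 0 to 2.04% over libraries and genes (median 1918 to 2871 UMIs per cell before thinning). Without thinning the Siglech share was 93.8% in Ctrl and 15.1% at D1.

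**Figure D3:**
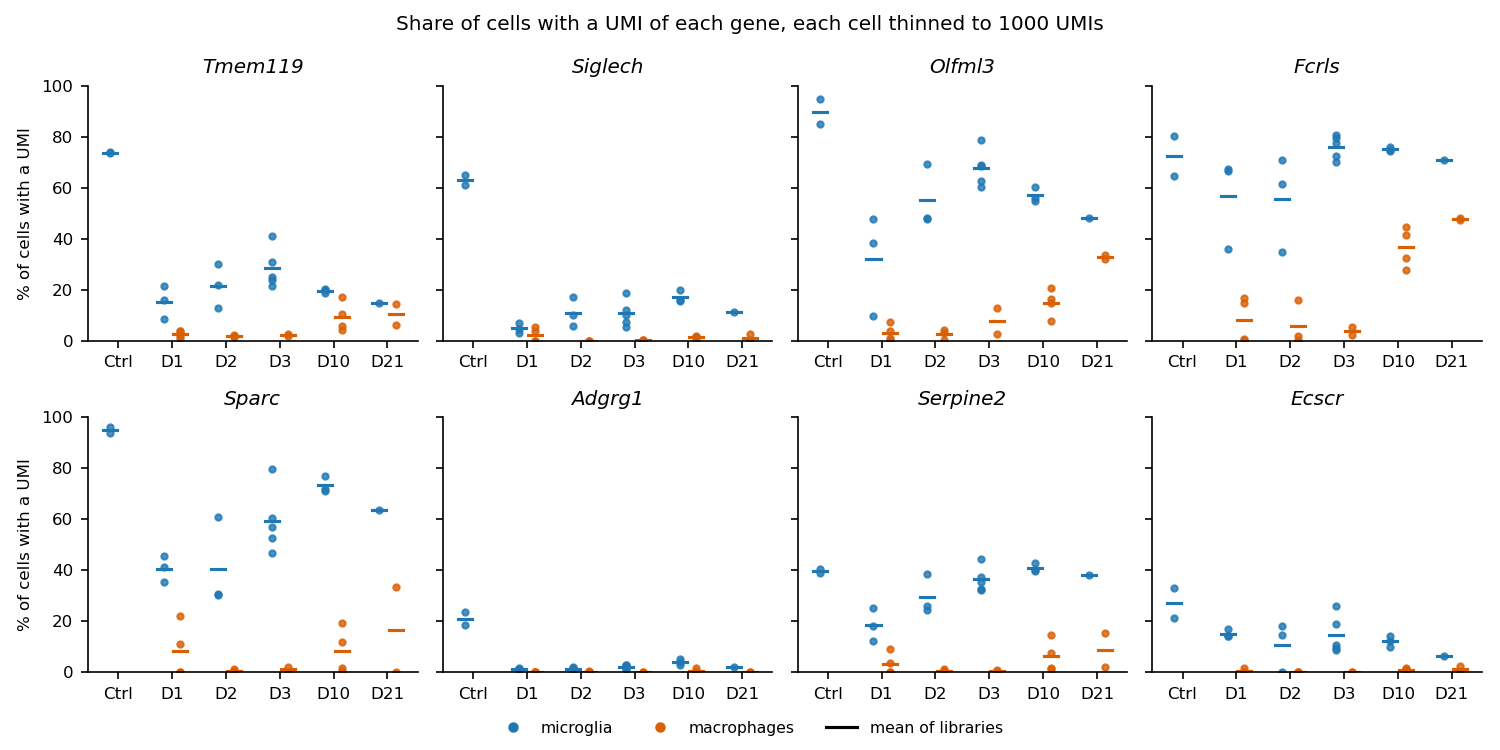
Percent of cells with at least 1 UMI of each gene after thinning each cell to 1000 UMIs, with a point per library and a bar at the mean, for microglia (mixed and resident libraries) and macrophages (mixed and infiltrating libraries). Siglech was seen in 63.1% of control microglia and 5.09% at D1, and Fcrls in 72.5% and 56.8%.

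The deposited clusters divide microglia further. They were made from all genes of these cells, so the levels are a description with no test. Cluster 1 held the control cells and no others, so its levels are those of Ctrl. With all times summed, of the clusters of injured microglia, cluster 4 (1377 cells, of which 891 were from D10) had the highest Siglech at 342 CPM, Adgrg1 at 58.0 and Sparc at 2595, with a median of 5827 UMIs per cell. Within a day this order did not always hold: at D2 Adgrg1 was at 24.6 and 88.9 CPM in the 2 libraries of cluster 3 and at 47.0 in that of cluster 4, and at D10 Sparc reached 2737 in cluster 6, where cluster 4 ran from 2683 to 3049. Cluster 7 (67 cells, 58 from D2, median 13526 UMIs) had the highest Tmem119 at 462 CPM and Olfml3 at 2167. Within D2, with 1 library in each, Tmem119 was at 647 CPM in cluster 4 and 539 in cluster 7, and Olfml3 at 2570.1 and 2576, so cluster 7 was below cluster 4 there in Tmem119 and close to it in Olfml3. Cluster 5 (3330 cells, 2316 from D1) had Siglech at 60.9 CPM, Adgrg1 at 17.2 and Sparc at 814 but Fcrls at 1423 and Ecscr at 176. Cluster 6 (1515 cells, mostly D2 and D3) had Siglech at 88.5 CPM and Fcrls at 1625. Cluster 2 (1924 cells, 960 from D1, median 1876 UMIs) was lowest of clusters 1 to 7 in the summed level of all 8 genes, with Tmem119 at 71.0 CPM, Olfml3 at 253 and Adgrg1 at 4.08. Its macrophage-coded cells (123) are in that sum. Clusters hold the days in different shares: over the 3 libraries of D1, Siglech was at 30.3 to 82.4 CPM in cluster 2 and at 25.9 to 81.2 in cluster 5, so these overlapped. With cluster 2 left out of the fit, 5, 4, 3 and 3 of the 8 genes were lower at D1, D2, D3 and D10, as many as with it, and 2 at D21, where it was 3 with it, among 2544, 1218, 1882, 253 and 83 genes in all. In cluster 3 (3660 cells, 1540 from D10) Siglech was at 126 CPM and Fcrls at 1901. Within cluster 5, Sparc ran from 546 to 802 CPM over the 3 D1 libraries and from 1755 to 2137 over 2 D10 libraries. In cluster 2 it ran from 482 to 625 CPM over the 3 D1 libraries and from 93.8 to 737 over 4 D10 libraries. In cluster 3 it was at 1902 in 1 D1 library and at 13.3 to 2186 over 5 of D10, infiltrating ones included. D1 and D10 thus overlapped in these clusters and not in cluster 5, but not as a measure of microglia alone. Clusters 2 and 3 held 123 and 348 macrophage-coded cells. Over all libraries, those cells had Sparc at 293 and 267 CPM, and the microglia of the 2 clusters at 479 and 1823. Among the macrophage clusters, cluster 14 (118 cells, median 1488 UMIs) had Fcrls at 272 CPM (94 UMIs) and Sparc at 165 (57 UMIs). Cluster 9 had Fcrls at 174 and Sparc at 16.8. These levels pool libraries and days, and need not hold in each library.

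**Figure D4:**
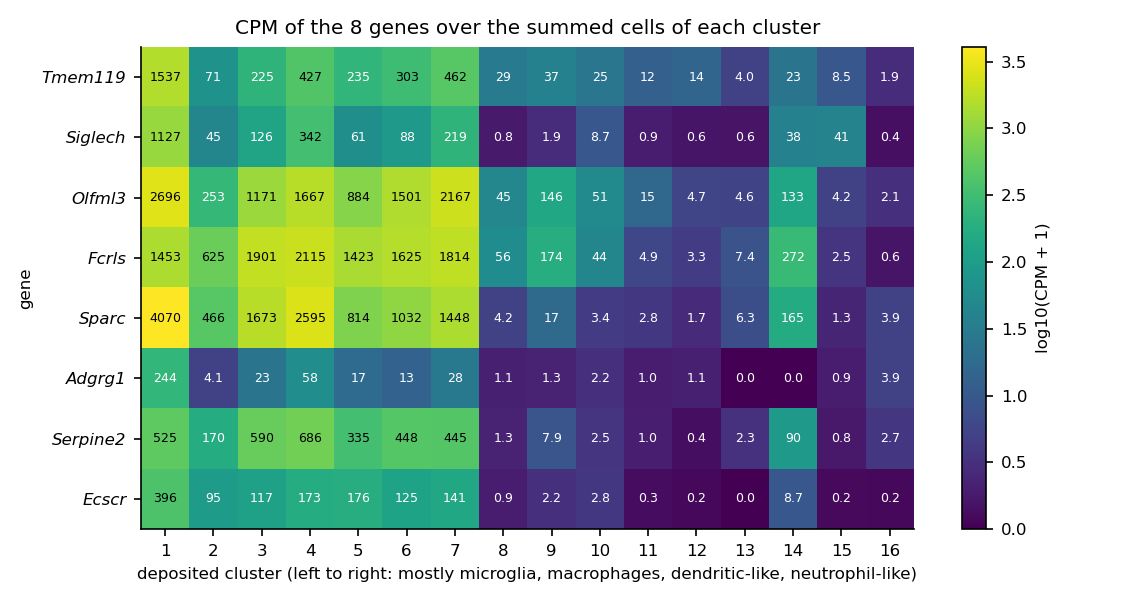
CPM of each gene over the summed cells of each of the 16 deposited clusters, with colour on a log10(CPM + 1) scale. Clusters 1 to 7 carry the genes, cluster 1 (the control cells) has the highest Siglech, Adgrg1 and Sparc, and clusters 11, 12, 13 and 16 carry little of any of them.

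The reporter sort does not use the deposited clusters. Over all cells of a library, all 8 genes were lower in infiltrating than in resident libraries, where 6.04% of 11548 genes tested were lower. The fit had time point, sex and sort as terms over 7 infiltrating and 5 resident libraries (155 to 2917 cells). Both sorts were present at D2, D3 and D10 alone, so the sort term rests on those libraries. Sparc was at 3.49 CPM in the infiltrating library of D2, 2.71 in that of D3 and 13.8 and 63.3 in those of D10, against 1157, 778, 543 and 1789.6 in the resident libraries of the same days. The groups did not overlap, and the log2 difference was -7.35 (SE 0.79, adjusted p = 0.00159). Ecscr was at 0 to 2.75 CPM in those infiltrating libraries and at 70.2 to 159 in the resident ones, with a log2 difference of -7.63 (adjusted p = 0.00258). Serpine2 differed by -6.79 (0.00244) and Adgrg1 by -4.06 (0.0009). These 4 calls held under each of the 12 left-out libraries. Fcrls was at 4.39 CPM in the infiltrating library of D2, 21.9 in that of D3 and 548 and 466 in those of D10, while the 4 resident libraries of those days held 1126 to 1689. Its distance from the resident libraries was thus smaller at D10, and no test of that was run. Fcrls differed by -5.58 (SE 1.27, adjusted p = 0.0250), Olfml3 by -5.32 (0.0156), Siglech by -3.97 (0.0297) and Tmem119 by -3.03 (0.0196). The Fcrls and Olfml3 calls were lost when 5 of the 12 libraries were left out in turn (D2_infiltrating 1, D2_resident 1, D3_infiltrating 1, D3_resident 1 and D3_resident 2), that of Siglech with 7 and that of Tmem119 with 3. With sequencing pool as a term 6 of the 8 genes were lower, and Tmem119 and Fcrls were not called. Among all cells the conflicting library had Sparc at 0.770 CPM, Fcrls at 10.2 and Tmem119 at 12.9, and 8 microglia of 3800 cells. Entered as resident, it left 0 of the 8 genes and 0 genes in all called by edgeR, and entered as infiltrating it gave 8 of the 8 and 1028 genes lower.

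**Figure D5:**
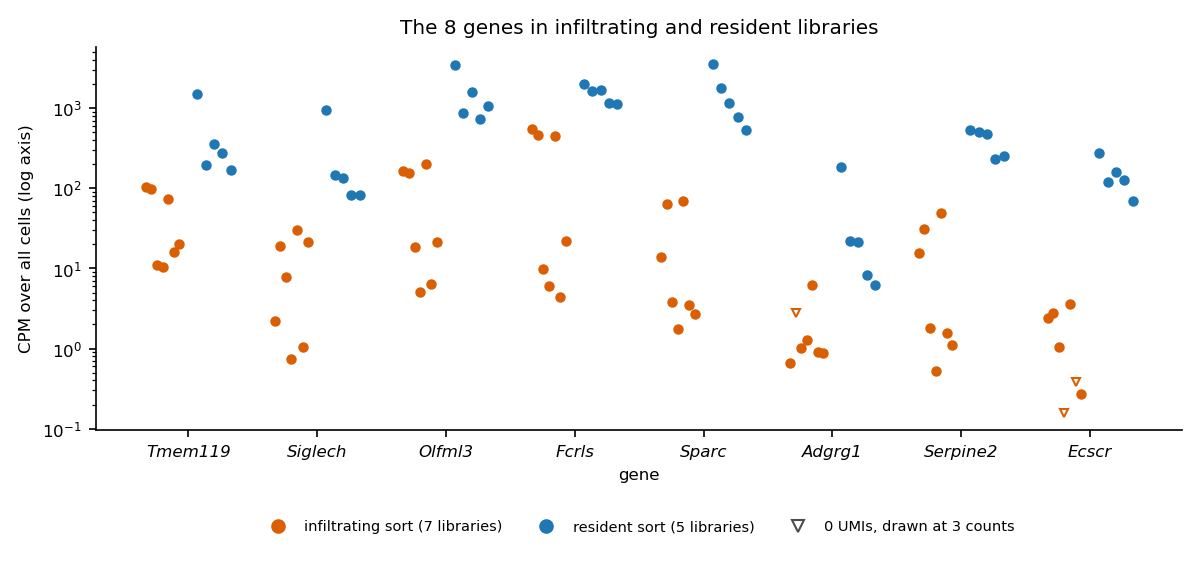
CPM of each gene over all cells of each infiltrating and each resident library (log axis), with a point per library and open triangles for libraries with 0 UMIs, drawn at the level of 3 counts. For every gene all infiltrating libraries lie below all resident ones, by the least for Adgrg1 (6.28 CPM in D21_infiltrating 1 and 6.30 in the lowest resident library), and the infiltrating libraries of D10 and D21 make up the upper Tmem119, Olfml3 and Fcrls points.

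In macrophages, Tmem119 and Olfml3 were higher at D10 than at D1, and Fcrls had a change of the same sign that missed the threshold. The fit held 15 sums of 28 to 3019 macrophage-coded cells from infiltrating and mixed libraries, and 2 of the 7 genes tested were higher, where 7.31% of 8577 genes were. Adgrg1 did not pass the expression filter there. Tmem119 was at 11.96 and 11.4 CPM in the infiltrating libraries of D1 and at 112 and 164 CPM in those of D10. In the mixed libraries it was at 38.1 and 31.6 CPM at D1 and at 29.3 and 32.2 CPM at D10. The infiltrating libraries did not overlap and the mixed libraries did, a difference between sorts that was not tested, and the log2 change over both sorts was 2.28 (SE 0.61, adjusted p = 0.0249). Olfml3 was at 16.3 and 5.68 CPM in infiltrating libraries at D1 and at 179 and 195 CPM at D10. In mixed libraries it was at 29.7 and 34.1 CPM at D1 and 73.2 and 55.5 at D10, with a log2 change of 2.95 over both (SE 0.80, adjusted p = 0.0269). Fcrls was at 7.80 and 6.68 CPM in infiltrating libraries at D1 and at 612 and 689 CPM at D10, with 500.2 at D21. Mixed libraries held 59.3 and 146 CPM at D1 and 181 and 162 at D10, and the log2 change was 3.29 (95% confidence interval 1.00 to 5.59, adjusted p = 0.0537). DESeq2 called it higher. The Tmem119 and Olfml3 calls were lost without any 1 of the infiltrating libraries of D1 and D10, and in the mixed libraries alone their changes were -0.00142 and 1.13. That mixed fit called 0 of the 7 genes higher, and 666 genes in all. Pool and time cannot be told apart for these comparisons.

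The other 4 genes tested were not called. Siglech was at 0 to 8.27 CPM in the macrophages of the infiltrating libraries of D1 and D10, Sparc at 1.62 to 5.45 and Ecscr at 0 to 3.31. Serpine2 was at 0.991 and 0.375 CPM at D1 and 14.9 and 14.9 at D10. In the mixed libraries Siglech was at 4.24 and 46.2 at D1 and 16.3 and 7.76 at D10, highest in D1_mixed 3. Sparc was at 67.8 and 217 at D1 and 58.6 and 59.9 at D10 there, Ecscr at 4.24 and 19.5 at D1 and 4.88 and 5.55 at D10, and Serpine2 at 25.4 and 34.1 at D1 and 30.9 and 22.2 at D10. For Siglech, Sparc, Serpine2 and Ecscr the log2 changes from D1 to D10 were 0.01, -0.88, 1.58 and 0.35, with adjusted p of 0.995, 0.747, 0.472 and 0.921. Their intervals were wide, that of Serpine2 being -1.35 to 4.51. Some macrophage-coded cells lay in clusters 2 and 3, which microglia share. At D10 it was 10.9% in D10_infiltrating 1, 60.3% in D10_infiltrating 2, and 39.6% and 44.1% in the mixed libraries. At D1 it was 0.265% and 0.788% in the infiltrating libraries, 32.1% in D1_mixed 1 and 37.0% in D1_mixed 3. The macrophage-coded cells of these clusters had Sparc at 293 CPM in cluster 2 and 267 in cluster 3. In cluster 9, which microglia do not share, the infiltrating libraries had Fcrls at 29.6 CPM in D1_infiltrating 1 (52 cells), 446 in D3_infiltrating 1 (61), 691 in D10_infiltrating 1 (432), 1000.4 in D10_infiltrating 2 (28) and 1654 in D21_infiltrating 1 (29). The other libraries with at least 20 such cells had 459 CPM (D2_resident 1, 29 cells), 57.4 (D3_mixed 3, 2676), 70.5 (D3_conflict 1, 90) and 273 (D10_resident 1, 109). The cells of the infiltrating libraries had Sparc at 0 to 6.39 CPM and Siglech at 0 to 14.8, and Olfml3 at 56.1 CPM at D1 against 206 and 310.5 at D10 and 766 at D21. From D1 to D3 no gene was called in macrophages by edgeR (612 had an unadjusted p under 0.05, and DESeq2 called 5), and of the 7 genes Olfml3 alone had an unadjusted p under 0.05 (log2 change 2.58). From D3 to D10 edgeR called 0 of the 7, where 8 of the 8577 genes tested were higher and 50 lower. Fcrls (3.06) and Tmem119 (2.10) had an unadjusted p under 0.05, among 1326 genes in all, and DESeq2 called Tmem119.

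Siglech was the only gene of the 8 that was higher in dendritic-like cells than in macrophages by their pooled counts, at 40.7 CPM against 1.60, with 285 in microglia and 0.415 in neutrophil-like cells. The receptor is also known from plasmacytoid dendritic cells. Of the 1267 Siglech UMIs of dendritic-like cells, 636 came from D3_infiltrating 1 (41.1 CPM, 1265 cells). The 10 libraries with at least 20 such cells ran from 5.59 CPM in D3_mixed 3 (2 UMIs) to 67.5 CPM in D2_mixed 2 (26 UMIs), with 34.6 and 9.07 at D1 and 5.97 and 22.5 in the libraries of D10, so libraries of the same day differed several-fold. Dendritic-like cells had 7 of 8 dendritic cell markers high and 3 of 8 on a plasmacytoid dendritic cell list without Siglech, which summed to 935 CPM there, 748 in macrophages and 663 in microglia. The other genes were at 0.225 CPM (Ecscr) to 8.47 CPM (Tmem119) in dendritic-like cells. In neutrophil-like cells they were at 0.208 (Ecscr) to 3.94 CPM (Adgrg1 and Sparc), and a count of 3 is 0.623 CPM there.

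Genes of the same state and families were set beside the 8, as lists drawn up with earlier results of these data known. Of 25 other homeostatic microglia genes, all tested, 19 were lower and 0 higher at D1, 16 lower at D2, 15 lower and 1 higher at D3, 6 lower and 1 higher at D10, and 3 lower and 1 higher at D21. Of all genes tested, 22.7%, 12.2%, 17.6%, 2.22% and 0.861% were lower from D1 to D21, and 23.9% (D1), 20.1% (D3), 8.06% (D10) and 6.12% (D21) higher. The median log2 change of the 25 was -1.65 at D1 and -0.62 at D10. At D1 the lowest were Cx3cr1 (-6.43), the gene whose locus carries the Cre, and the sugar transporter gene Slc2a5 (-5.71), and the called gene nearest 0 was Rhob (-0.92). At D10 the lowest were Slc2a5 (-2.54) and the purinergic receptor gene P2ry12 (-2.29), the called lower gene nearest 0 was Rhob (-1.14), and Tyrobp, which encodes the adaptor of Siglech, was higher (1.46). From D1 to D3, 10 of the 25 were higher and 2 lower (8.62% and 10.2% of all genes), with Cx3cr1 at 4.58 and Slc2a5 at 2.99 highest and Cst3 at -1.37 and Rhob at -0.85 lower. From D3 to D10, 5 were higher (2.96% of all genes), among them Tgfbr1, a receptor of TGF-beta (1.49), and Cst3 (1.39) at the upper end and Tyrobp (0.70) and Sall1 (1.02) at the lower.

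The family lists were small, and their counts are to be read against the same shares. Of 9 SIGLEC and adaptor genes, 8 were tested, and 4 were lower at D1, Siglecg (-5.84), Cd33 (-2.42), Siglecf (-1.84) and Siglece (-1.67). At D10, 2 were lower, Siglecg (-3.85) and Siglece (-2.39), and 3 higher, Cd22 (2.73) and the adaptors Hcst (2.34) and Tyrobp, which is on both lists. Of 9 Fc receptor and Fc receptor-like genes, 6 were tested, and at D1 Fcgr4 (1.78) and Fcer1g (0.71) were higher and Fcrl1 (-1.30) lower. At D10 Fcer1g alone was called, and was higher (1.05). Of 10 adhesion receptor genes and partners of Adgrg1, 6 were tested. At D1 Adgrl2 (-2.68) and the tetraspanin gene Cd81 (-1.08) were lower, and Tgm2, a transglutaminase reported as a ligand of Adgrg1, was higher (2.81). At D10 Adgrl2 was lower (-2.09) and Cd9 higher (1.68). Of 13 SPARC-family and matricellular genes, 4 were tested, and 1 was called at D1, Spp1, which encodes osteopontin (11.61), also called at D10 (9.86). Of 12 genes for serpins, proteases and their receptors, 8 were tested. At D1 Plaur, the urokinase receptor gene (4.42), and Sdc4 (5.04) were higher and Serpinf1 (-1.07) lower. At D10 Plaur (4.20), Serpinb6a (2.77) and Plau (2.11), the gene of a protease that Serpine2 inhibits, were higher, and Serpinf1 (-2.10) was lower. Of 4 olfactomedin genes, 1 was tested and was not called at D1 or D10. In the sort, 18 of the 25 homeostatic genes were lower in infiltrating libraries, and 0 were higher, where 6.04% of all genes were lower and 5.17% higher.

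Across the 17 microglia sums, some of the 8 genes had like log2 levels, which is a description over sums of 17 libraries that share sequencing pools and differ in depth. Siglech and Sparc had a Pearson correlation of 0.91, and 0.88 over the 15 injured sums. Tmem119 and Olfml3 had 0.81 (0.86 injured), and Fcrls and Serpine2 0.81 (0.84). The 3 genes that were lower up to D10 were less alike without the controls: Tmem119 and Siglech had 0.76 (0.32 injured), Tmem119 and Adgrg1 0.76 (0.23), and Siglech and Adgrg1 0.80 (0.42). Ecscr had values among the injured sums of -0.34 with Serpine2 to 0.16 with Tmem119. Among all genes of the fit, with the value over the injured sums given second, those most like Tmem119 were Ikzf1 (0.94, 0.80), Slc25a45 (0.94, 0.84) and Pld1 (0.93, 0.81), those most like Siglech Ctc1 (0.96, 0.90), Gpr155 (0.95, 0.91) and Pik3cg (0.95, 0.91), and those most like Adgrg1 Lpar6 (0.95, 0.85), Acp2 (0.95, 0.88) and Rtn4rl1 (0.95, 0.82). For Fcrls they were Rida (0.87, 0.88), Pon3 (0.82, 0.87) and Tpp1 (0.82, 0.87), and for Ecscr Fermt3 (0.88, 0.82), Lrrc25 (0.88, 0.80) and Ccdc59 (0.88, 0.74). For Sparc they were Irak2 (0.94, 0.91), Pbxip1 (0.94, 0.91) and Ttf1 (0.94, 0.91), for Olfml3 Mmp2 (0.90, 0.89), Ift46 (0.90, 0.88) and Gabarapl2 (0.89, 0.87), and for Serpine2 Hexa (0.93, 0.93), Gnpda1 (0.91, 0.93) and Ppt1 (0.90, 0.90). Hexa and Ppt1 encode lysosomal enzymes, and Mmp2 a matrix metalloprotease.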

How the data were processed

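Raw UMI counts per gene and cell of each library were deposited by the authors, with a table of each cell's library, total count, percent of mitochondrial UMIs, cell type code, cluster number and sequencing pool. Cell Ranger 3.1.0 and the builds GRCm38 and mm10 are named in the submitters' processing notes. Cell filters, the clustering method and the names of the cell type codes are not given in the sources used here. The deposited total count of all 30958 cells equalled the sum of the matrix, and the percent of mitochondrial UMIs deposited by the authors is given as a description and entered no fit.

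Counts were summed per library and cell type where a library held at least 20 such cells, and per library over all cells for the sort. CPM are these sums divided by their total UMIs. Fits used R 4.3.3 and edgeR 4.0.16 (TMM scaling, the package's expression filter, quasi-likelihood test) with time point and sex as terms, and with sort as a further term for the sort, over 17, 15 and 12 sums (135097 to 7794902, 235999 to 22068469 and 954175 to 33204422 UMIs). They were tested on simulated data. DESeq2 1.42.0 was run as another method, and tables were made with Python 3.11.15, numpy 2.4.6, pandas 2.3.3, scipy 1.17.1 and matplotlib 3.10.9.

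Groups came from the sample labels, and libraries are the replicates. Libraries pool 1 to 3 mice each, so p-values measure the spread between these libraries. In D2_infiltrating 1 the labelled sex and the deposited sex code differ, and the label was used. Cells with a barcode in more than 1 library were kept, doublets were not called, and no correction was made for free RNA. The 8 genes, the context lists and the marker lists were chosen with earlier results of these data known. All 8 genes are named in each comparison against control, by sort, and from D1 to D10 in macrophages. Between the other injured times some uncalled genes are not named. Called genes of a context list are named at D1 and D10 against control and, for the homeostatic list, also between injured times. Elsewhere counts at most are given. At most 4 called genes are named each time, those with the 2 lowest and 2 highest log2 changes. The value of 1 gene that this rule names is not reported here. For each of the 8, the 3 genes with the highest Pearson correlation of log2(CPM + 1) over the microglia sums are named. Alternatives were another scaling, DESeq2, no expression filter, a larger cell minimum, other terms, subsets of clusters or sorts, and each library left out.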

Additional observations from a re-analysis of the deposited data

Results flagged for a closer look

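In groups of 4 to 10 libraries, 9 of 64 groups of the 8 genes had 1 library far from the others, measured as its gap to the nearest of them over the whole range. Within one condition chance gives this in about 1 group in 20, a rate that cannot be applied to the groups by sort, which hold libraries of different days and, in the resident sort, a control.

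In the resident sort over all cells, the control library stood apart for 3 genes. Tmem119 was at 1519 CPM in Ctrl_resident 1 and at 172 to 359 CPM in the 4 injured resident libraries, Siglech at 956 against 81.7 to 146, and Adgrg1 at 186 against 6.30 to 22.2. These are the 3 genes that were called lower at D1, D2, D3 and D10 in microglia. In the infiltrating sort, Adgrg1 was at 6.28 CPM in D21_infiltrating 1 and at 0 to 1.26 CPM in the other 6 libraries. The D21 value rests on 7 UMIs, and 41 of the 155 cells of that library were microglia. The part of the cell make-up in this value was not tested.

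The microglia of D10_infiltrating 2, a library sorted against microglia, had Sparc at 797 CPM and Tmem119 at 95.1 CPM. The other 3 D10 libraries had 2340 to 2608 CPM of Sparc and 267 to 301 CPM of Tmem119. That library was not in the microglia fit.

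In macrophage-coded cells, Siglech was at 46.2 CPM in D1_mixed 3 and at 0 to 4.24 CPM in the other D1 libraries. At D2 the macrophage-coded cells of D2_resident 1 had Siglech at 8.20 CPM, where the other 3 libraries were at 0, and Ecscr at 5.68 CPM against 0 to 0.539. D2_resident 1 was not in the macrophage fit.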

How the results depend on the processing

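Over the left-out libraries, 1282 of 1355 log2 changes of the 8 genes kept their call, 53 lost it and 20 gained one, with 0 sign changes of a called value. Over the other settings, 861 of 940 kept it, 37 lost it and 42 gained one, with 1 sign change of a called value.

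Against control, the genes called lower among all tested were 2457, 1314, 1896, 240 and 93 from D1 to D21. With total-UMI scaling they were 4383, 2617, 3956, 2161 and 1845, and 5 of the 8 genes were lower at D3. In the mixed libraries alone they were 212, 746, 46, 1 and 58, with 3 of the 8 lower at D1 and 0 at D3, D10 and D21. With sequencing pool as a term the D2, D3 and D10 counts were 404, 1 and 790, with 0 of the 8 lower at D3. DESeq2 called 489 lower at D10 and 293 at D21, and the fit without sex 188 at D21. The mixed fit has fewer libraries. Its control was labelled female and its D1, D3 and D10 libraries male, so its sex term rested on D2_mixed 1 (524 cells) and D2_mixed 2 (23 cells). The cause of these shifts was not tested.

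Between injured times, 931 genes were higher at D3 than at D1 and 320 at D10 than at D3. The mixed libraries alone gave 514 with 2 of the 8 genes and 38 with 0. For D10 against D3, DESeq2 called 587, no filter 2 of the 8, the pool term 0 genes and 0 of the 8, and the fit without clusters 6, 7 and 10 gave 74 and 0. The replicate block gave 501 genes and 2 of the 8 for D10 against D3. Libraries of the same number had correlations of -0.184 to 0.107 in their deviations from the group means. In groups of so few libraries these deviations depend on each other, so they cannot show whether the numbers pair the samples.

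In macrophages, 627 genes were higher at D10 than at D1, and 1026 with DESeq2. The mixed libraries alone gave 666 genes and 0 of the 7. There Tmem119 had a log2 change of -0.00142 for D10 against D1, and Olfml3 -1.48 for D10 against D3. By sort, 698 genes were lower, 388 with the pool term, and 0 with the conflicting library as resident, with 0 of the 8.

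Leaving out 1 library gave 1508 to 2798 genes lower at D1, 190 to 1577 on D2, 766 to 2127 on D3, 24 to 337 on D10 and 2 to 137 on D21. Of the 8 genes, 3 to 5 were lower at D3, 1 to 3 at D10 and 0 to 4 at D21. For D3 against D1, 434 to 1194 genes and 2 to 4 of the 8 were higher, and for D10 against D3 29 to 837 and 0 to 2. In macrophages at D10 against D1 it was 124 to 801 and 0 to 3, and by sort 158 to 1034 and 4 to 8.

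With 11 pairs of comparison and setting no value could be had: the pool term where pool and time cannot be told apart, the fits without cluster 1, which holds all control cells, and D21 without its 1 library. Depth limits Adgrg1 most, at 6.75 to 51.1 CPM in injured microglia.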
